A study of Mus musculus with 6 samples.

Results

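Axons and growth cones are built from a small set of abundant neuronal cytoskeletal proteins, and 10 genes for them were examined in embryonic mouse brains that carry a deletion in Tdp2. They were chosen by name from the array annotation as genes of axon maturation: the neurofilament subunits Nefl, Nefm and Nefh with the neuronal intermediate filament gene Ina, the microtubule-associated proteins Mapt, Map2 and Map1b, the neuronal tubulin Tubb3, and the growth cone genes Stmn2 and Gap43. All 10 had at least 1 array row naming that gene alone (11 rows, 2 of them for Ina), among 19938 genes and 21789 such rows in all. The set was chosen with earlier results of these data known, so its counts beside shares of all rows are descriptive only.

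The samples were whole brains (olfactory bulb to brain stem) of embryos at embryonic day 16.5, 3 with the genotype Tdp2Δ1-3 and 3 wild type, each read on its own array. Tdp2 encodes the tyrosyl-DNA phosphodiesterase that frees 5′ ends of DNA breaks from trapped topoisomerase II, and Tdp2Δ1-3 is a deletion allele of that gene. Each genotype's samples are titled as biological replicates 1 to 3, the series text speaks of pairs of brains without saying which belong together, and the labels used here give neither strain, sex nor litter. The comparison asks how transcripts in the embryonic brain differ when the enzyme is lost.

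Neurofilaments are the intermediate filaments of axons. The light subunit encoded by Nefl co-assembles with the medium and heavy subunits of Nefm and Nefh and with α-internexin, the product of Ina, which appears early in developing neurons, while the heavy subunit is known as a late one. Microtubules of the axon are bundled and spaced by tau (Mapt) and MAP1B, and those of dendrites and cell bodies by MAP2. The stathmin-family protein of Stmn2 and the membrane-attached GAP-43 are concentrated at growing axon tips.

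All values below are log2 values that stand in the deposited table centred on each gene's median over the 6 brains, so they compare brains for 1 gene and say nothing of which gene is more abundant. With 6 values, the 2 middle brains of a gene lie equally far above and below 0 by construction. Array medians lay between -0.011 and 0.014. For Tdp2 itself the values were -1.05, -0.90 and -0.94 in the Tdp2Δ1-3 brains, against 0.90, 1.10 and 1.34 in the wild types, a fall of 4.21-fold (limma adjusted p = 0.00035), although the row may include probes outside the deleted part. Because levels are centred away, the labelled tissue could not be checked against its defining markers. In whole-brain RNA, fewer cells of a type and less RNA per cell cannot be told apart.

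Single brains differed in ways that touch the results. Tdp2Δ1-3 replicate 3 stood apart in sex-linked genes: Xist, the RNA of the inactive X chromosome, was at 6.27 there, against at most 1.17 in the other 5 brains, and the Y-linked genes Eif2s3y, Kdm5d and Uty were at -4.32, -2.85 and -3.30, against -0.07 or higher in the other 5. Tdp2Δ1-3 replicate 1 and wild-type replicate 3 stood apart from their genotypes in Hox genes of hindbrain and spinal cord, as given below. The count of rows called was 1515 with all arrays and ranged from 145 to 2501 with 1 array left out.

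Every one of the 10 genes had a lower mean in the Tdp2Δ1-3 brains, and 2 of them passed the test. Mapt fell by 0.36 ± 0.07 on the log2 scale (SE, n = 3 per genotype), 1.28-fold, and Gap43 fell by 0.22 ± 0.05, 1.17-fold (limma adjusted p = 0.022 and 0.030). The 3 neurofilament subunit genes had the most negative values of the set, between -0.53 and -0.49, and none of them passed. The median difference of the 10 genes was -0.22, beside 0.01 over all 23410 rows tested, of which 43.2% had negative values. Of those rows, 6.47% were called, 4.13% lower and 2.34% higher, against 2 lower and 0 higher of the 10 genes, and 6 of the 10 had an unadjusted p under 0.05, against 21.8% of the rows. No gene of the set passed with a 1.5-fold change, the limit in the series text, which 0.641% of rows did.

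**Figure D1:**
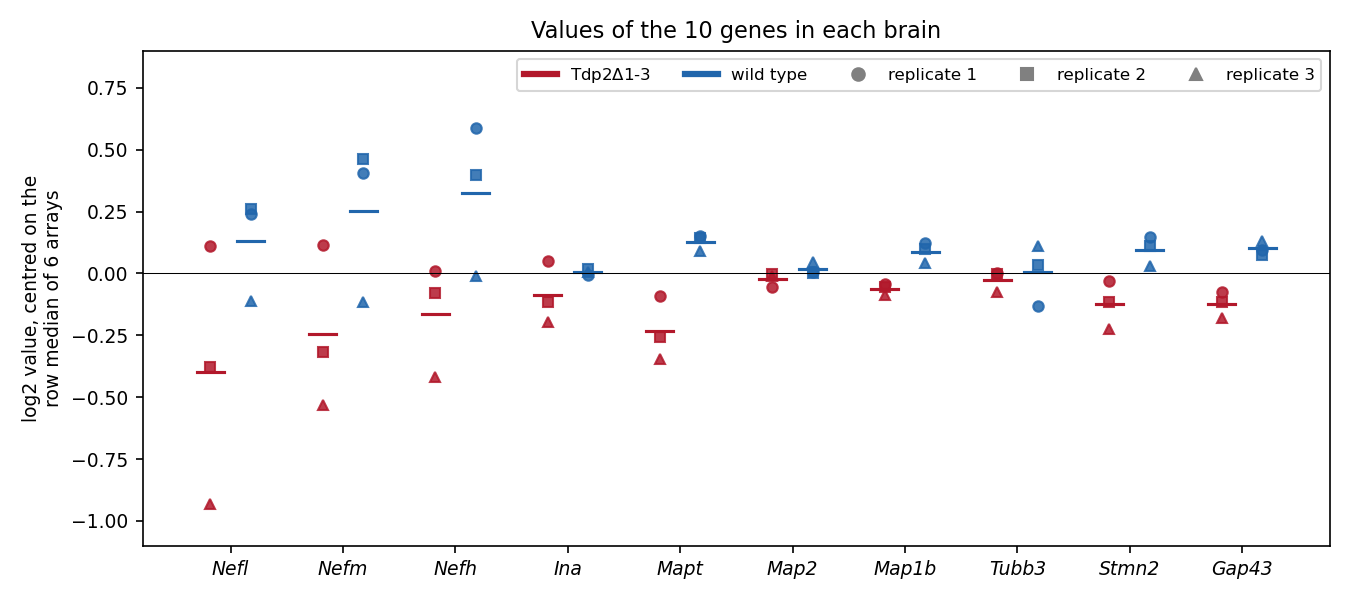
Centred log2 value (vertical axis) of each of the 10 genes in each brain, with Tdp2Δ1-3 in red left of wild type in blue, 1 marker shape per replicate and a bar at each genotype's mean. The genotypes overlap in Nefl, Nefm, Nefh, Ina and Tubb3 and lie apart in Mapt, Map2, Map1b, Stmn2 and Gap43; the lowest point is Nefl in Tdp2Δ1-3 replicate 3 at -0.93.

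Nefl, the gene for the light subunit on which neurofilaments are assembled, had values of 0.11, -0.38 and -0.93 in the Tdp2Δ1-3 brains, against 0.24, 0.26 and -0.11 in the wild types. Replicate 1 of the mutants thus lay above replicate 3 of the wild types, and the mutants spread over a full log2 unit. The difference was -0.53 ± 0.23 (SE; 95% interval -1.07 to 0.01; limma adjusted p = 0.24). Nefm, the medium subunit gene, which lies with Nefl on chromosome 14, was at 0.12, -0.32 and -0.53 in the Tdp2Δ1-3 brains, against 0.41, 0.46 and -0.12 in the wild types. The same 2 brains crossed. Its difference was -0.50 ± 0.19 (adjusted p = 0.18 by limma). Nefh, the heavy subunit gene on chromosome 11, had 0.0086, -0.08 and -0.42 in Tdp2Δ1-3 and 0.59, 0.40 and -0.0086 in wild type. Here the genotypes overlapped only by that pair of values around 0, and the difference was -0.49 ± 0.16 (limma adjusted p = 0.12).

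The 3 subunit genes combined large differences with a large spread between brains. Only 0.756%, 0.927% and 0.991% of rows had a more negative difference than Nefl, Nefm and Nefh. Their SD within genotypes was larger than that of 99.9%, 99.7% and 99.5% of rows. Both genotypes contributed: the SD over the 3 Tdp2Δ1-3 brains was 0.52 for Nefl, 0.33 for Nefm and 0.23 for Nefh, and over the 3 wild types 0.21, 0.32 and 0.30.

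Ina had a smaller difference than the 3 subunit genes. Its better-covered row was at 0.05, -0.12 and -0.20 in the Tdp2Δ1-3 brains, against -0.0067, 0.02 and 0.0067 in the wild types, so the mutants lay on both sides of a narrow wild-type range. The difference was -0.09 ± 0.06 (SE; 95% interval -0.24 to 0.06; limma adjusted p = 0.47). It was -0.04 without Tdp2Δ1-3 replicate 3 and -0.16 without Tdp2Δ1-3 replicate 1. The second Ina row, which rests on 1 accession, gave -0.04 ± 0.05 (limma adjusted p = 0.73). Taken within each brain, Nefh minus Ina was -0.04, 0.04 and -0.22 in Tdp2Δ1-3 and 0.59, 0.38 and -0.02 in wild type, and Nefl minus Ina was 0.06, -0.26 and -0.73 in Tdp2Δ1-3 and 0.25, 0.24 and -0.12 in wild type. In both gaps wild-type replicate 3 lay among the mutants.

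**Figure D2:**
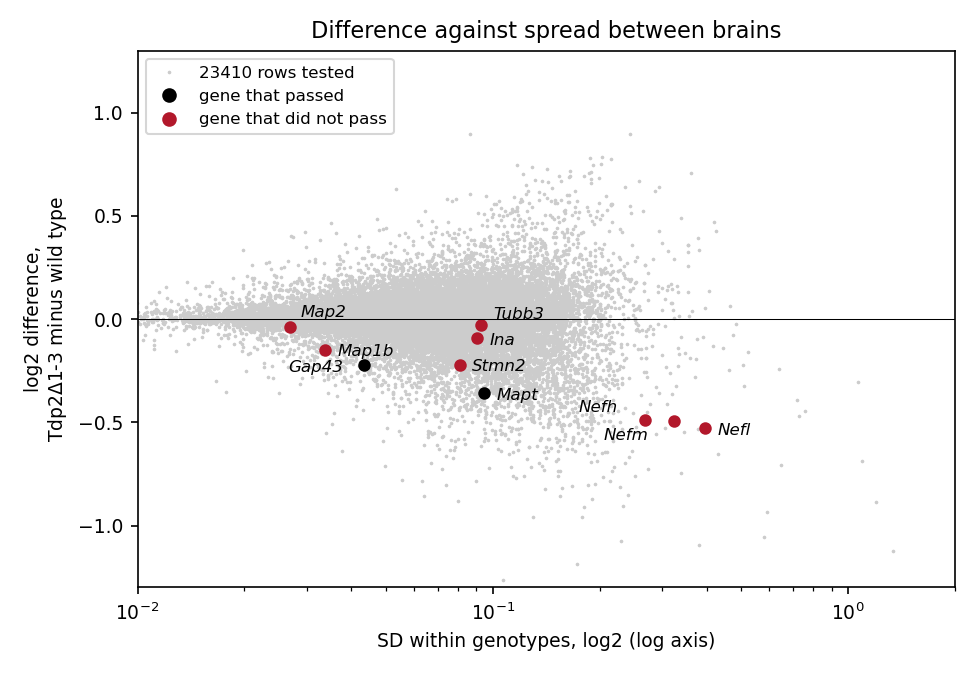
Log2 difference, Tdp2Δ1-3 minus wild type (vertical axis), against the SD within genotypes (log axis) for the rows tested in grey, of which 68 fall outside the axes, and the 10 genes as large points (black, passed; red, did not pass). Nefl, Nefm and Nefh lie far to the right at differences near -0.5, while Mapt and Gap43 reach smaller differences at a much smaller spread.

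Among the 3 microtubule-associated proteins, only Mapt passed. Its values were -0.09, -0.25 and -0.35 in the Tdp2Δ1-3 brains, against 0.15, 0.14 and 0.09 in the wild types. All mutants lay below all wild types, and the mutant SD (0.13) was larger than the wild-type SD (0.03). The 95% interval of its difference ran from -0.51 to -0.20. Map1b, the gene of the early axonal protein MAP1B, lies on chromosome 13 like Tdp2. It was at -0.04, -0.05 and -0.09 in Tdp2Δ1-3 and 0.12, 0.10 and 0.04 in wild type, again without overlap, with a difference of -0.15 ± 0.04 that did not pass (limma adjusted p = 0.084).

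Map2, the gene of the dendritic MAP2, had one of the smallest differences. The Tdp2Δ1-3 brains lay between -0.05 and -0.00051 and the wild types between 0.00051 and 0.05. The genotypes were apart only by that small gap, and the difference was -0.04 ± 0.04 (SE; 95% interval -0.14 to 0.06; limma adjusted p = 0.66). The gap between Mapt and Map2 within a brain was -0.04, -0.25 and -0.34 in Tdp2Δ1-3, against 0.14, 0.14 and 0.04 in wild type. Each gene is read by 1 row here, so the isoforms of tau and MAP2 that change during development were not told apart.

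Tubb3, the neuron-specific beta-tubulin gene, showed no difference beyond the spread between brains. It was at 0.0037, -0.0037 and -0.07 in Tdp2Δ1-3 and -0.13, 0.04 and 0.11 in wild type, and the lowest brain of all was a wild type. Its difference was -0.03 ± 0.07 (SE; 95% interval -0.18 to 0.12; limma adjusted p = 0.86), and it was 0.02 without wild-type replicate 3.

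The growth cone genes had similar differences. Gap43, whose protein GAP-43 acts on the actin skeleton under the growth cone membrane, was at -0.07, -0.12 and -0.18 in the Tdp2Δ1-3 brains, against 0.10, 0.07 and 0.13 in the wild types. Stmn2, the gene of a stathmin that releases tubulin from microtubules, was at -0.03, -0.12 and -0.23 in Tdp2Δ1-3 and 0.15, 0.11 and 0.03 in wild type. Neither gene overlapped between genotypes. The Stmn2 difference was -0.22 ± 0.06 (SE), close to that of Gap43, and did not pass (limma adjusted p = 0.074). In all, 5 of the 10 genes (Mapt, Map2, Map1b, Stmn2 and Gap43) had all mutants below all wild types, against 12.6% of the rows tested.

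**Figure D3:**
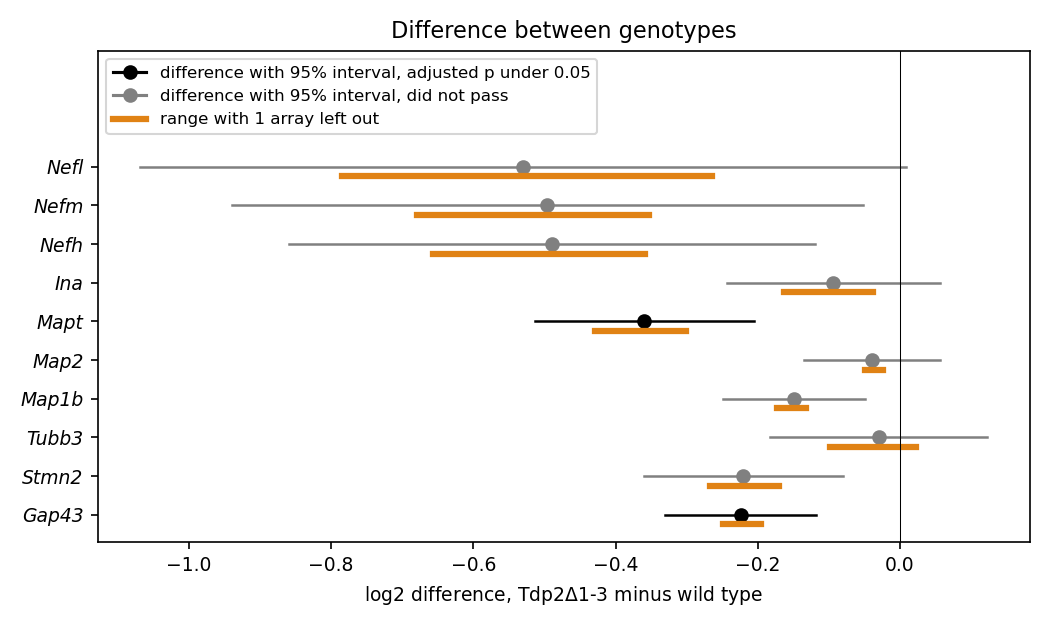
Log2 difference, Tdp2Δ1-3 minus wild type (horizontal axis), with its 95% interval for each gene (black, passed; grey, did not pass) and, in orange, the range of the difference when each array was left out in turn. The intervals of Nefl, Nefm and Nefh are the widest, and the orange range crosses 0 only for Tubb3.

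Both calls depended on which brains were included. Mapt passed without wild-type replicate 3 (adjusted p = 0.046) and without Tdp2Δ1-3 replicate 1 (0.0059), and missed with any other array left out (0.061 to 0.11, limma), while its difference stayed between -0.43 and -0.30. Gap43 passed only without Tdp2Δ1-3 replicate 1 (adjusted p = 0.024), and its difference stayed between -0.25 and -0.20. The number of the 10 genes called was 0 without wild-type replicate 1 or 2 or Tdp2Δ1-3 replicate 2 or 3. It was 5 without Tdp2Δ1-3 replicate 1, where Nefl and Nefm had differences of -0.78 and -0.68 (limma adjusted p = 0.032 and 0.048) and Stmn2 passed too (0.033). It was 2 without wild-type replicate 3, namely Mapt and Nefh, with Nefh at -0.66 (limma adjusted p = 0.040). Of all 23410 rows, 725, 335 and 1165 were called without wild-type replicates 1, 2 and 3. Without Tdp2Δ1-3 replicates 1, 2 and 3, the rows called numbered 2501, 145 and 596. The swing in calls was thus not particular to these genes. Without Tdp2Δ1-3 replicate 3, the brain with high Xist, the Nefl difference was -0.26 in place of -0.53, and the part of sex in it was not tested. Cyclic loess normalisation of the centred values moved Nefl to -0.03 and left Nefm and Nefh at -0.51 and -0.57, though centred values hold no intensity scale for it to follow.

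The 2 brains in which the neurofilament genes crossed were also those in which Hox genes crossed. The Hox genes listed here are expressed in hindbrain and spinal cord and not in forebrain or midbrain. Of 12 such genes, all 12 were above 0 in Tdp2Δ1-3 replicate 1, 0 in replicate 2 and 1 in replicate 3, and in the wild types 12, 11 and 0 were above 0. The median of the 12 was 0.50, -0.21 and -0.30 in Tdp2Δ1-3 and 0.28, 0.23 and -0.31 in wild type. The median of the 4 neurofilament genes was 0.08, -0.22 and -0.48 in Tdp2Δ1-3, against 0.32, 0.33 and -0.06 in wild type. Within each genotype, the brains with a high Hox median were those with a high neurofilament median. Ina did not follow this in the wild types, at -0.0067, 0.02 and 0.0067. The order was not particular to these lists. The pan-neuronal median was also highest in replicate 1 of the mutants (-0.06, -0.23 and -0.35). It was lowest in replicate 3 of the wild types (0.18, 0.11 and 0.06).

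No Hox gene of this list passed, with Hoxa5 at -0.69 (limma adjusted p = 0.61) and Hoxd4 at 0.08 (0.72). An unadjusted limma p under 0.05 was found for 0 of 12, against 21.8% of all rows tested. Prph encodes peripherin, an intermediate filament protein of motor and peripheral neurons that joins neurofilaments. It was at 0.46, -0.46 and -0.86 in Tdp2Δ1-3 and 0.74, 0.52 and -0.71 in wild type (limma adjusted p = 0.60), high in the same 3 brains as the Hox genes. Of 8 measured markers of peripheral and motor neurons, none passed. An unadjusted limma p under 0.05 was found for 2 of the 8, against 21.8% of all rows tested. The smallest p were those of Isl1 at 0.18 (limma adjusted p = 0.069) and Tlx3 at 0.14 (0.15), both factors of such neurons. The list medians per brain were 0.10, 0.02 and 0.0041 in Tdp2Δ1-3 and -0.0011, -0.02 and -0.13 in wild type.

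The Hox median of each brain was also fitted as a covariate, a fit chosen after the data were seen. Within each genotype this median follows the neurofilament genes, as given above. The fit therefore takes out spread of those same genes, so their passing in it is no independent test. The part of the Hox-linked difference between brains in the genotype differences was not tested. In this fit the differences stayed close to those without the covariate. Nefl was at -0.47, Nefm at -0.44 and Nefh at -0.45, and each passed (limma adjusted p = 0.047, 0.0065 and 0.034), as did Mapt at -0.34, Stmn2 at -0.21 and Gap43 at -0.22. That made 6 of the 10 genes lower, where 9.51% of all rows were called in the same fit, 6.06% lower, and Map1b, Ina, Map2 and Tubb3 did not pass. The covariate leaves 3 residual degrees of freedom before moderation.

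**Figure D4:**
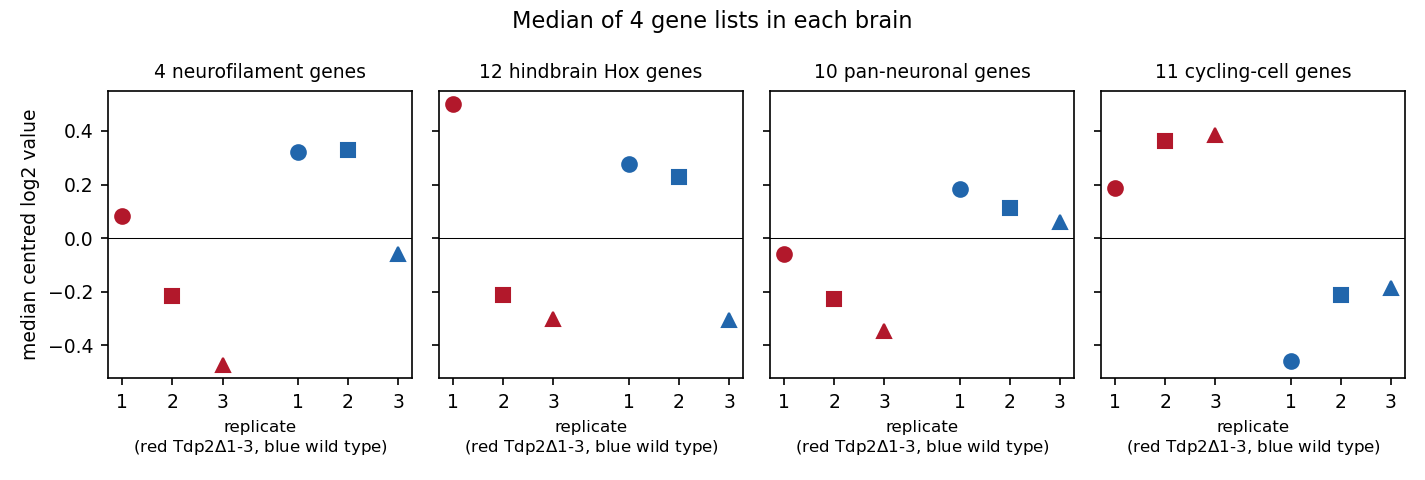
Median centred log2 value (vertical axis) of 4 gene lists in each brain, with the 3 Tdp2Δ1-3 replicates in red left of the 3 wild types in blue. Neurofilament and Hox medians are both high in Tdp2Δ1-3 replicate 1 and low in wild-type replicate 3 relative to their genotypes. Pan-neuronal medians have the same extremes within each genotype, and pan-neuronal and cycling-cell medians separate the genotypes without overlap.

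General neuronal markers had lower means in the Tdp2Δ1-3 brains in 9 of 10 cases, and genes of dividing cells had higher means in 11 of 11. Of all rows tested, 4.13% were called lower and 2.34% higher, and 43.2% had negative values. Of the 10 pan-neuronal markers, 5 fell. Eno2, a neuronal enolase, fell by 0.69, the secretory granule gene Scg2 by 0.48, and the synaptic genes Snap25, Syp and Syt1 by 0.42, 0.39 and 0.38. Rbfox3, Uchl1, Celf4 and Elavl3 were at -0.26, -0.23, -0.18 and -0.18 without passing. Elavl4 was at 0.15, with every mutant above every wild type, and did not pass either. The list median was -0.32, and per brain -0.06, -0.23 and -0.35 in Tdp2Δ1-3 against 0.18, 0.11 and 0.06 in wild type. The count was 0 without wild-type replicate 1 or 2 or Tdp2Δ1-3 replicate 2, 1 without Tdp2Δ1-3 replicate 3, 3 without wild-type replicate 3 and 8 without Tdp2Δ1-3 replicate 1. All 11 measured cycling-cell genes rose, by 0.37 to 0.78, among them Ccna2, Kif11, Mki67, Cenpf, Mcm2 and Top2a, but 2 did so without Tdp2Δ1-3 replicate 2. Their median was 0.19, 0.36 and 0.39 in Tdp2Δ1-3, against -0.46, -0.21 and -0.19 in wild type. Gli3, Nes and Vim rose (0.60, 0.49 and 0.20) among the 10 genes of radial glia, the embryonic neural stem cells. That list went both ways, with 6 positive and 4 negative values and a median of 0.13, and Slc1a3, Ptprz1, Fabp7 and Hes5 were at -0.26, -0.17, -0.08 and -0.07 without passing. All 3 rises were lost without wild-type replicate 2 or Tdp2Δ1-3 replicate 2, and 1 gene of the list rose without Tdp2Δ1-3 replicate 3. The part of these cell types in the differences of the cytoskeletal genes was not tested.

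Set against the pan-neuronal median of the same brain, the 10 genes varied in how near they stayed to it. Mapt minus that median was -0.03, -0.03 and -0.00084 in Tdp2Δ1-3 and -0.03, 0.03 and 0.03 in wild type, at most 0.03 from 0 in any brain. The same quantity for Tubb3 was 0.06, 0.22 and 0.27 in Tdp2Δ1-3, against -0.31, -0.08 and 0.05 in wild type. For Map2 it was 0.0069, 0.23 and 0.34 in Tdp2Δ1-3, against -0.18, -0.11 and -0.01 in wild type, and for Ina 0.11, 0.11 and 0.15 in Tdp2Δ1-3 against -0.19, -0.09 and -0.05 in wild type. Map1b minus that median was 0.02, 0.17 and 0.26 in Tdp2Δ1-3, against -0.06, -0.01 and -0.02 in wild type, and Stmn2 minus it was 0.03, 0.11 and 0.12 in Tdp2Δ1-3, against -0.04, -0.00013 and -0.03 in wild type. These 5 genes were thus higher relative to the pan-neuronal genes in every mutant than in every wild type. Nefl, Nefm and Nefh had lower means relative to it in the mutants (differences of -0.20, -0.17 and -0.16), with genotypes that overlapped, as they did for Gap43 at a difference of 0.10. The pan-neuronal median was itself lower in every mutant than in every wild type, so a gene that did not differ also comes out higher here. How many of all rows do so was not counted. These gaps are described without a test.

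Newborn-neuron genes did not fall. Of all rows tested, 2.34% were called higher and 43.2% had negative values. Of 10 measured, Nhlh1 and Nhlh2, basic helix-loop-helix factors of young neurons, rose by 0.90 and 0.31, and 9 of the 10 had positive values (median 0.16). The remaining one was Dcx, the microtubule-binding doublecortin gene, at -0.03 (limma adjusted p = 0.75). Per brain the list median was 0.06, 0.07 and 0.05 in Tdp2Δ1-3, against -0.23, -0.05 and -0.0057 in wild type. The list held 1 rise with any single array left out, except without Tdp2Δ1-3 replicate 3, where it held 2.

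Other genes of the same structures were measured for comparison. Beside the counts in these lists, 4.13% of all rows tested were called lower and 2.34% higher. An unadjusted limma p under 0.05 was found for 21.8% of rows. Of 26 further microtubule-binding and stathmin genes, 8 fell, none rose and 18 did not pass, with a median of -0.14. Map1a, whose protein replaces MAP1B as neurons mature, fell by 0.58 ± 0.10 (SE; limma adjusted p = 0.015), the most negative value of that list. Map9, Map7d2 and Map6 fell by 0.36, 0.36 and 0.33, Stmn4, a relative of Stmn2, by 0.28, and the doublecortin-like kinase gene Dclk1 by 0.24. Stmn1, the ubiquitous stathmin gene, was at -0.0021 (adjusted p = 0.99 by limma). The count was 3, 1 and 5 without wild-type replicates 1, 2 and 3, and 10, 0 and 3 without Tdp2Δ1-3 replicates 1, 2 and 3.

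Among 10 other tubulin genes measured, only Tuba4a passed. It fell by 0.32 ± 0.05 (SE; limma adjusted p = 0.013), with values of -0.14, -0.17 and -0.12 in Tdp2Δ1-3 against 0.15, 0.26 and 0.12 in wild type. The list median was -0.05, and Tuba1a, the main alpha-tubulin gene of young neurons, was at -0.05 (adjusted p = 0.68). Tubulin genes are close relatives, and array probes may not tell them fully apart. Tuba4a did not pass without wild-type replicate 2 or Tdp2Δ1-3 replicate 2, and 3 of these genes passed without Tdp2Δ1-3 replicate 1.

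Of 16 further growth cone genes, 2 fell and 14 did not pass (median -0.13). Ncam1, a neural cell adhesion molecule, fell by 0.21 and Dpysl5, a collapsin response mediator gene, by 0.27 (limma adjusted p = 0.035 and 0.044). None passed without wild-type replicate 1 or 2 or Tdp2Δ1-3 replicate 2 or 3, 1 passed without wild-type replicate 3, and 6 without Tdp2Δ1-3 replicate 1. Of 13 axonal transport genes, Dync1i1, Kif3b and Kif1a fell by 0.76, 0.24 and 0.28 (median -0.14). Dync1i1 encodes a neuronal intermediate chain of dynein, and its values were -0.58, -0.37 and -0.28 in Tdp2Δ1-3 against 0.28, 0.35 and 0.43 in wild type. The count of transport genes was 1 without wild-type replicate 1 or 2 or Tdp2Δ1-3 replicate 2 or 3. It was 2 without wild-type replicate 3 and 4 without Tdp2Δ1-3 replicate 1. The kinesin heavy chain gene Kif5a was at -0.25 (limma adjusted p = 0.067).

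Of 9 linker and membrane skeleton genes, Sptbn1, a beta-spectrin gene, and Ank1, an ankyrin gene, fell by 0.26 and 0.28, and all 9 had negative values (median -0.15). The other ankyrin genes, Ank2 and Ank3, were at -0.24 and -0.15 and did not pass (limma adjusted p = 0.068 and 0.12). The Sptbn1 and Ank1 calls were lost without wild-type replicate 1 or 2 and without Tdp2Δ1-3 replicate 2 or 3. The list held 3 calls without wild-type replicate 3 and 2 without Tdp2Δ1-3 replicate 1. None of 13 kinase and kinase activator genes of the cytoskeleton passed (limma; 6 at an unadjusted p under 0.05), with Cdk5r1, the activator of the tau kinase Cdk5, at -0.19 (adjusted p = 0.12) and Mapk9 at -0.16 (0.14). In that list 3 passed without Tdp2Δ1-3 replicate 1. Among other intermediate filament genes, Nes and Vim, the filament genes of neural progenitors, rose (limma adjusted p = 0.017 and 0.042; 2 of 6 measured, with a list median of 0.10), but neither did without wild-type replicate 2 or Tdp2Δ1-3 replicate 2, and 1 gene of that list passed with any other array left out.

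**Figure D5:**
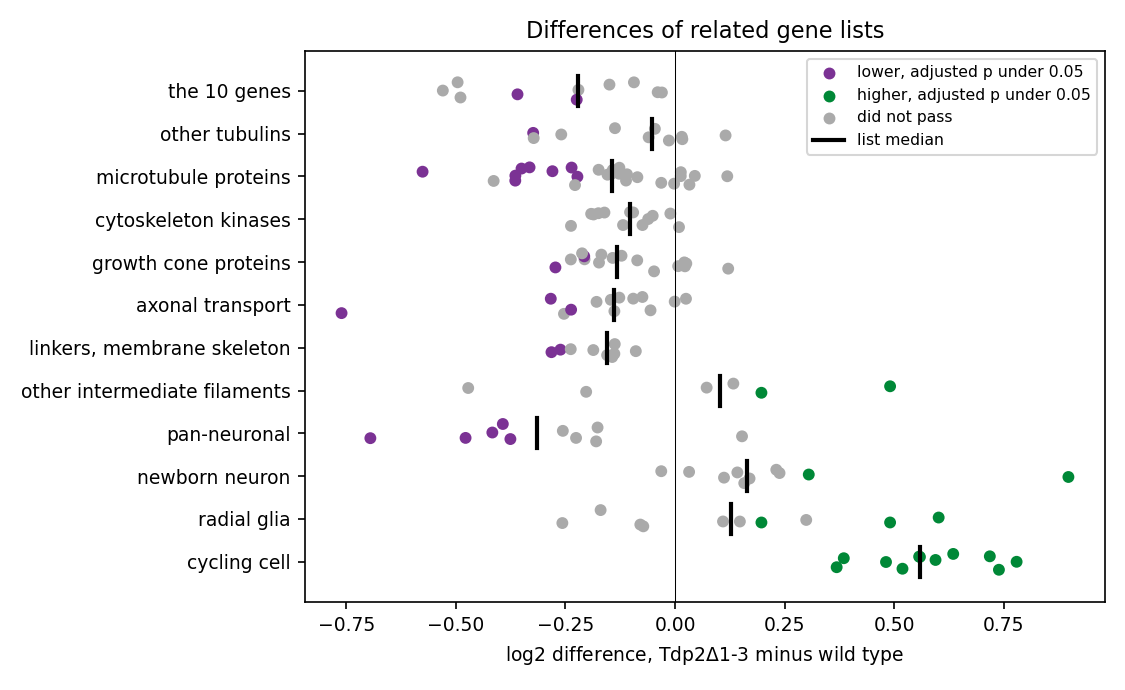
Log2 difference, Tdp2Δ1-3 minus wild type (horizontal axis), of each measured gene in the 10-gene set and 11 related lists, with a bar at the list median (purple, lower; green, higher; grey, did not pass). Medians lie below 0 in the axonal and pan-neuronal lists and above 0 for other intermediate filament, newborn-neuron, radial glia and cycling-cell genes, with 0.56 the highest.

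Promoter sequences were at hand for 4 of the 10 genes and are shown because they include the 3 genes with the smallest differences, Tubb3, Map2 and Ina, beside Map1b. Each is the 250 bases before the transcription start in the RefSeq table of build GRCm38.p6, 5′ to 3′, at chr8:123411303-123411552 (plus strand) for Tubb3, chr1:66175079-66175328 (plus) for Map2, chr19:47014431-47014680 (plus) for Ina and chr13:99516603-99516852 (minus) for Map1b. Capitals mark matches on either strand to the GC box GGGCGG, the E-box CANNTG or the TATA motif TATAAA.
Tubb3: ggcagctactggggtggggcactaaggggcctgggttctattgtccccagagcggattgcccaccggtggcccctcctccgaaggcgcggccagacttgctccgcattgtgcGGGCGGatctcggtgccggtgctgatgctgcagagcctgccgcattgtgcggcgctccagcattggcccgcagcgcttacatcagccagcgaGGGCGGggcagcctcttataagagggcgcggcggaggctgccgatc
Map2: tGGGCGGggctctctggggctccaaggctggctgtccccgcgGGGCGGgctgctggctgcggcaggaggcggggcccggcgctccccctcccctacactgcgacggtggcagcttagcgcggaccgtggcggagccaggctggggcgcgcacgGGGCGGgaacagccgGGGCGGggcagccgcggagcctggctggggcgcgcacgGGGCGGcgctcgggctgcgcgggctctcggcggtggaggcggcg
Ina: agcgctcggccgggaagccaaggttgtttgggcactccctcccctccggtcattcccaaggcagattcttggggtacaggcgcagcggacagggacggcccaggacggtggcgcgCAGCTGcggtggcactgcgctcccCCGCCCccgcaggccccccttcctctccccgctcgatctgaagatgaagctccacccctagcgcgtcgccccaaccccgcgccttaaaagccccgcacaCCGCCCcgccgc
Map1b: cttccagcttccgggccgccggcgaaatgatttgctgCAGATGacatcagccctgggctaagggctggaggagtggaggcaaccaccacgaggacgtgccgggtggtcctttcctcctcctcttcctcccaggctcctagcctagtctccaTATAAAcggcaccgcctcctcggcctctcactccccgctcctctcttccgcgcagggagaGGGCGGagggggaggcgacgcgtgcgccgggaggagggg
All 4 windows were rich in CG dinucleotides, with 21 in Tubb3, 34 in Map2, 25 in Ina and 19 in Map1b, against a median of 6 over 32851 such windows. Each held at least 1 GC box match (2 in Tubb3, 5 in Map2, 2 in Ina and 1 in Map1b), as did 32.7% of all windows. An E-box match stood in Ina and Map1b, as in 66.2% of windows, and a TATAAA match in Map1b, as in 12.4%. A match describes the letters only. Nefl, Nefm, Nefh, Mapt, Stmn2 and Gap43 are named without a window.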

How the data were processed

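Total RNA from 6 embryonic brains was hybridised to Affymetrix Mouse Gene 1.0 ST arrays, 1 brain per array, per the labels' protocols. The deposited values were log2 values, normalised by the authors with RMA (Robust Multi-Array Average) according to the series text; Affymetrix Expression Console is the tool in the submitters' processing notes. The table states no log base, and the log2 scale follows from RMA. Each row has a median of 0 over the arrays, a centring that the sources do not describe, so no filter on low values was possible. How probes were summarised and which genome build the array used is not given in the sources used.

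The platform annotation named the rows, and symbols were updated through RefSeq (GRCm38.p6). Of 28856 rows, 21789 named 1 gene, 1621 several and 5446 none. The 23410 rows naming a gene were tested with limma 3.58.1 in R 4.3.3 (lmFit and eBayes), two-sided, with Benjamini-Hochberg adjustment over those rows. Calls required an adjusted p under 0.05, and SEs are limma's moderated ones. Where a gene had several rows, the one with most accessions stood for it. The steps were tested on simulated data. Plots used matplotlib 3.10.9.

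All 10 genes and all related lists were chosen with earlier results of these data known. The text names all 10 genes, up to 6 called genes of each related list by smallest p, the 2 of smallest p where none was called, and Tdp2. Prph, Stmn1, Tuba1a, Dcx, Kif5a, Ank2, Ank3, Slc1a3, Ptprz1, Fabp7, Hes5, Rbfox3, Uchl1, Celf4, Elavl3, Elavl4 and the sex-linked genes were named after their values were seen. Same-numbered brains of the 2 genotypes deviated together with correlations of 0.21, 0.05 and 0.20 over rows, and no label says that a number marks a pair, so the main test has no block. The other settings tried were a block for the replicate number, leaving out each array, testing all rows or only single-gene rows, equal array medians, cyclic loess, array weights, a robust variance prior, averaging a gene's rows, and limma's treat against 1.2-fold. The median of hindbrain Hox genes as a covariate was added after the data were seen.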

Additional observations from a re-analysis of the deposited data

How the results depend on the processing

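Of the 10 genes, 2 passed with all arrays and no block. With the replicate number as a block, the number lower was 6 and the rows called numbered 2400. Nefl, Nefm, Nefh and Stmn2 passed in addition (limma adjusted p = 0.042, 0.021, 0.0035 and 0.029). No label says that the number marks a pair. The neurofilament median was lowest in replicate 3 of both genotypes (-0.48 in Tdp2Δ1-3 and -0.06 in wild type). The block therefore takes out part of the spread of those genes, so their calls there are no independent test either. With array weights 7 were lower and 5425 rows were called, and 2 of the 10 passed with a 1.5-fold change. The largest weights fell on replicate 2 of each genotype. They were 3.65 in wild type, against 0.44 and 0.70, and 2.25 in Tdp2Δ1-3, against 0.52 and 0.75. The calls of that fit thus rest largely on these brains, and its share of all rows at 1.5-fold was not counted. With the Hox median as a covariate 6 were lower, though that median follows the neurofilament genes within each genotype, so their calls there are no independent test. Against 1.2-fold with treat 0 were lower. With 1 array left out, the number lower ranged from 0 to 5, the number at 1.5-fold from 0 to 2, the rows called from 145 to 2501 and the median of the 10 from -0.26 to -0.18. No setting called any of the 10 higher. Tubb3 ranged from -0.098 to 0.023, the positive value without wild-type replicate 3, and no other gene of the set changed sign under any setting. Cyclic loess on the centred values moved Nefl to -0.03 (limma adjusted p = 0.94) and left Nefm and Nefh at -0.51 and -0.57. Centred values hold no intensity scale for loess to follow, so this setting cannot say whether the Nefl difference depends on normalisation. The cause of the move was not tested. Using all rows, single-gene rows, equal array medians, a robust prior or the mean of a gene's rows left 2 genes called. With 3 arrays per genotype and no levels, signal over background could not be assessed.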
